A study of Mus musculus with 18 samples.

Results

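The MAP kinase phosphatases described here are 8 genes, Dusp1, Dusp2, Dusp4, Dusp5, Dusp6, Dusp8, Dusp10 and Dusp16, taken by gene symbol from a table of 24346 genes. All 8 symbols were found, each once. Their mRNA was measured by poly(A) RNA sequencing of liver, intestine and lung taken from septic mice with or without inhaled hydrogen gas, in 18 libraries that fall into 6 groups of n = 3. All mice were C57BL/6 males aged 9 weeks, and every mouse used here had cecal ligation and puncture (CLP), an operation that lets gut bacteria leak into the abdomen and so models sepsis. H2 mice inhaled 7% hydrogen continuously from the end of the operation until 24 h, kept together in a gas-filled box, so the gas and the housing cannot be told apart. Control mice had CLP without the gas and were also sampled at 24 h. Sham-operated mice are not analysed here. Nothing in the labels ties the 3 organs to individual mice or says that each library is a separate mouse, so p-values measure the spread between these libraries only.

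As the mean of the 3 organ changes on log2(FPKM + 1), all 8 phosphatase genes were lower in H2 than in control libraries, as 49.6% of all genes were. In the lung alone Dusp6 and Dusp8 had a higher mean in H2. Over the organs Dusp2 and Dusp5 passed the test as lower (limma, adjusted p under 0.05), as 5.23% of all genes did. Dusp5 lost its call in 11 of 18 fits that left out 1 library. Both lost it without the replicate 1 libraries, and with 1 mean over the organs per treatment and number. Dusp2 was the member with the largest change in each organ. Dusp1, Dusp2, Dusp5 and Dusp8 had every H2 library below every control library in the intestine, as 8.75% of all genes did. In the lung the groups of all 8 members overlapped, while 15.9% of all genes had every H2 library lower. No member passed the test of a difference between organs. Dusp4 and Dusp6 had overlapping groups in every organ.

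Mitogen-activated protein (MAP) kinases carry signals from toll-like receptors, cytokine receptors and growth factor receptors, and are switched on when a kinase adds phosphate to a threonine and a tyrosine in their activation loop. The dual-specificity phosphatases of this family remove both phosphates. Most are themselves transcribed in response to the kinases they switch off, which makes them a negative feedback. Dusp1, Dusp2, Dusp4 and Dusp5 are inducible enzymes of the nucleus. Dusp6 sits in the cytoplasm and acts on ERK, while Dusp8, Dusp10 and Dusp16 act mainly on the stress-activated kinases JNK and p38. In sepsis models Dusp1 is known as a brake on p38 and cytokine mRNA in macrophages and as a gene that glucocorticoids induce.

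The upstream promoters of Dusp2, Dusp5 and Dusp8 are shown because Dusp2 and Dusp5 passed the test over the organs and Dusp8 had the smallest p of the 8 for a difference between organs. Sequences are from the RefSeq promoter table of build GRCm38.p6, which holds 7 of the 8 genes (Dusp4 is not among them). Each run is read 5′ to 3′ on the gene's strand from 250 to 41 bases before the annotated start. The Dusp2 window is chr2:127335909-127336118 on the plus strand, the Dusp5 window chr19:53528895-53529104 on the plus strand, and the Dusp8 window chr7:142095325-142095534 on the minus strand. Capitals mark an E-box (CACGTG) in Dusp2, 2 neighbouring serum response elements (CArG boxes) and a reversed cyclic AMP half-element (TGACG) in Dusp5, and 2 full cyclic AMP response elements (CRE, TGACGTCA) in Dusp8.
Dusp2: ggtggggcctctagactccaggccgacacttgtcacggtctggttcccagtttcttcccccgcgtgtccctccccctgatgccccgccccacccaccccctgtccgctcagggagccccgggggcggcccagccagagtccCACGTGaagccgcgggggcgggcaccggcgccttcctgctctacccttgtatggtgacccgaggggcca
Dusp5: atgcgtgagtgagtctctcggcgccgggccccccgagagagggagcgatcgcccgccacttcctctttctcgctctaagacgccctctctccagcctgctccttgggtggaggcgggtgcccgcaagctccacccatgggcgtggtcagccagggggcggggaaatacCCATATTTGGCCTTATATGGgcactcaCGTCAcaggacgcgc
Dusp8: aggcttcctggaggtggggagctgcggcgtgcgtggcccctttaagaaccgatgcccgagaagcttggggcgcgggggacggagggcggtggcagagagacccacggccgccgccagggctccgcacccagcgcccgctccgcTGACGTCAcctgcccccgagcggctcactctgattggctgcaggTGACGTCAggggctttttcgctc
Searched on both strands over the 250 bases before the start, the E-box lay at -109 in Dusp2. The CArG boxes lay at -82 and -72 in Dusp5, with the half-element at -55. The CRE copies lay at -107 and -63 in Dusp8. A full CRE was present in 2 of the 7 promoters, the other being Dusp1 at -143, and in 1.62% of the 27025 mouse promoters in the table. Every full CRE also contains the half-element, which was found in 4 of 7 (Dusp1, Dusp5, Dusp8 and Dusp16) and in 17.9% of all promoters. CArG boxes were found in 1 of 7 and in 1.399% of all. The E-box was found in 2 of 7 (Dusp1 at -126 and Dusp2) and in 6.05% of all. The ETS core CGGAAG was found in 1 of 7 (Dusp6) and in 13.8% of all. No match was found in the 7 windows for the AP-1 site TGANTCA (6.87% of all promoters), for TATAAA (12.97%) or for the kappa B motif (7.01%). These are matches of letters and do not show that a factor binds. The Dusp5 window overlaps an exon of the antisense gene AC137853.2, and the Dusp1 window overlaps an exon of another Dusp1 transcript.

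Each library carried the marker gene of its labelled organ (Alb for hepatocytes, Vil1 for enterocytes, Sftpc for surfactant-producing alveolar cells). Values are FPKM (fragments of a gene scaled to transcript length and to the mapped fragments of the library), as deposited by the authors, and the depth they imply ran from 7.94 to 15.1 M fragments. Summed FPKM lay between 709826 and 850609 except in H2 intestine 2, at 1142966. Some libraries stood apart from their group. On an axis set to 0 at the mean of the control libraries and 1 at the mean of the H2 libraries of an organ, with each library placed by axes made without it, control liver 2 was placed at 0.80 and control lung 3 at 0.76. H2 liver and lung libraries took 0.70 to 0.93, and the other controls of both organs -0.20 to 0.18. In the intestine the groups were not separated on this axis, with H2 libraries at 0.53, 0.86 and 0.44 and control libraries at 0.13, 0.56 and 0.28, so that control intestine 2 lay above 2 of the 3 H2 libraries. Replicate 1 of the liver and intestine groups also held 3.22 to 5.27 FPKM of the lung gene Scgb1a1, which was at 0 in replicates 2 and 3. Results that turn on these libraries are given with and without them.

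The members differed widely in level (FPKM, per length, so genes can be compared). In the control liver the highest were Dusp16 at 16.5 ± 3.95 and Dusp1 at 14.5 ± 6.10 FPKM (SD, n = 3), whose ranges overlapped, followed by Dusp6 at 8.17 ± 2.74. The other 5 averaged between 0.553 (Dusp4) and 1.83 FPKM (Dusp2) there. In the control intestine Dusp6, at 40.5 ± 15.8 FPKM, and Dusp1, at 28.3 ± 16.2 FPKM, overlapped at the top, and the other 6 averaged 2.56 (Dusp4) to 7.46 FPKM (Dusp16). In the control lung Dusp1 averaged 233 ± 65.7 FPKM and lay above every other member in every library. Dusp6 at 38.6 ± 12.6 and Dusp16 at 37.7 ± 17.1 FPKM came next and could not be ordered, then Dusp2 at 16.7 ± 14.4 FPKM, and Dusp10 was the lowest there at 2.37 ± 0.510.

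Most genes differed in level between the organs of control mice: 72.6% of all 13362 tested genes differed between liver and intestine, 85.1% between liver and lung and 68.9% between intestine and lung (limma, adjusted p under 0.05). Of the 8 members, 7, 7 and 5 did. The median log2 difference of all genes was -0.64 for liver minus intestine, -1.17 for liver minus lung and -0.45 for intestine minus lung, so the size of these differences depends on the scaling. The calls below held at the deposited scale, after quantile normalization and after median-of-ratios scaling. Dusp16, which acts on JNK, was higher in liver than in intestine (log2 difference 1.07 ± 0.29 SE, adjusted p = 0.00402), and lower in intestine than in lung (-2.12 ± 0.29, adjusted p = 8.53e-06). Dusp1 was lower in liver than in lung (-3.95 ± 0.40, adjusted p = 1.43e-07) and in intestine than in lung (-3.12 ± 0.40, adjusted p = 3.91e-06). Dusp5 was lower in liver than in intestine (-1.94 ± 0.27, adjusted p = 7.41e-06) and than in lung (-2.22 ± 0.27, adjusted p = 9.84e-07). Dusp6 was lower in liver than in intestine (-2.14 ± 0.35, adjusted p = 4.16e-05). The other calls at the deposited scale were lost or changed sign under at least 1 of these scalings. Dusp10 was not called between intestine and lung at the deposited scale (0.54 ± 0.24, adjusted p = 0.0578) and was called after both others. The Dusp2 difference between liver and intestine (-1.13 ± 0.48, adjusted p = 0.0458) also lost its call in 13 of the 18 fits that left out 1 library.

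**Figure D1:**
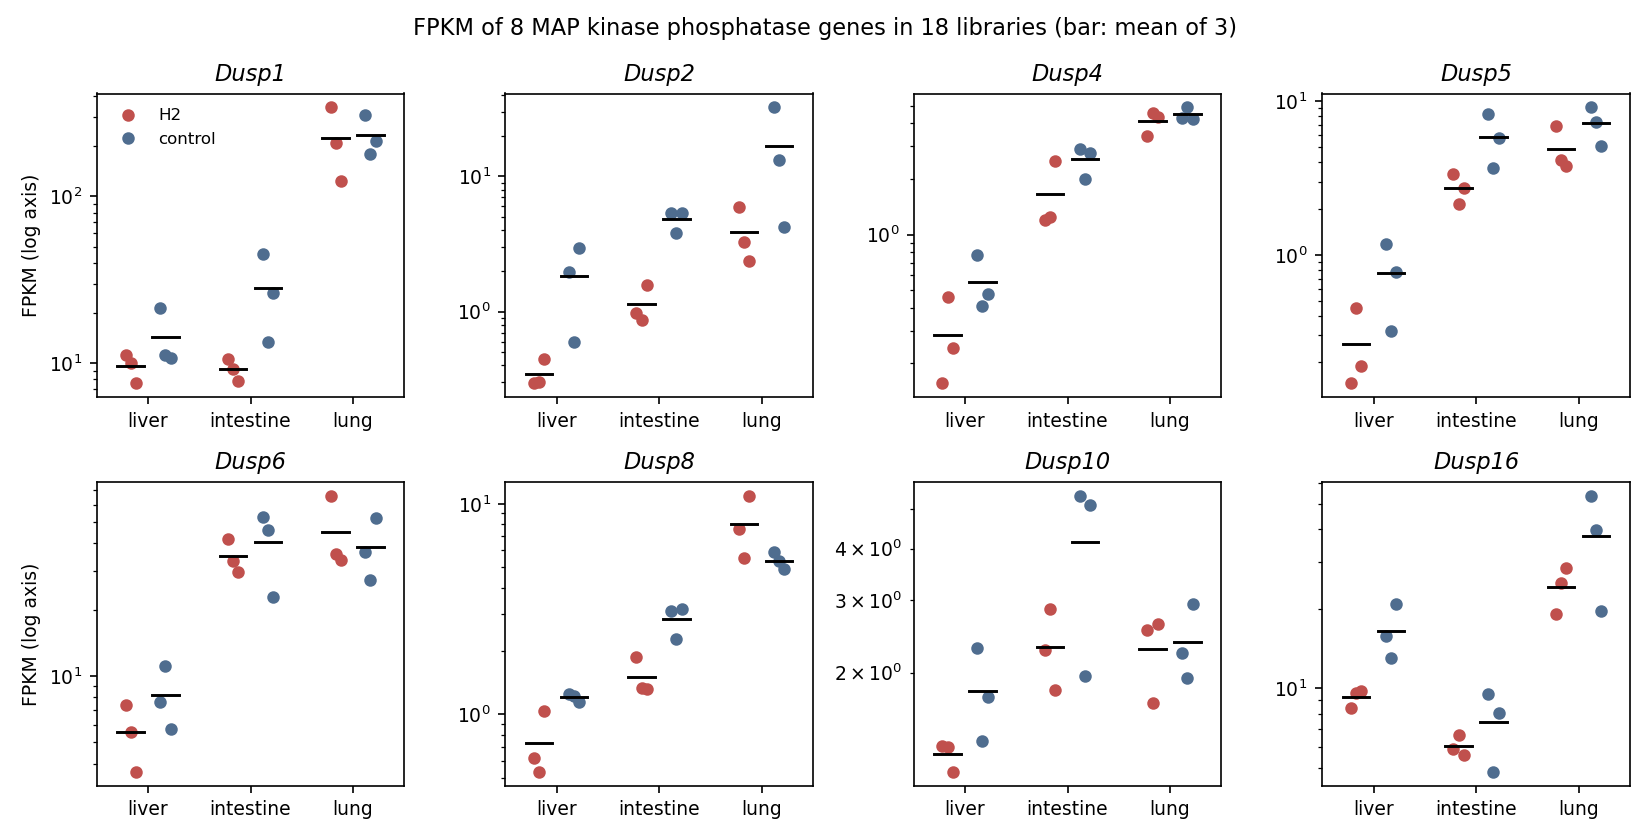
FPKM on log axes of the 8 phosphatase genes in each of the 18 libraries, H2 libraries in red to the left of control libraries in blue for each organ, with a bar at the mean of 3. Dusp2 in the intestine shows the H2 libraries between 0.869 and 1.58 FPKM, below control libraries between 3.82 and 5.40 FPKM.

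The first question was whether H2 changed each phosphatase gene over the organs together, tested as the mean of the 3 organ differences in 1 fit of all 18 libraries. Changes are given as H2 minus control on log2(FPKM + 1) with their SE, a scale that understates the change of genes near or below 1 FPKM. Of the 8 members 2 fell and 0 rose at an adjusted p under 0.05 (limma, Benjamini-Hochberg over 13362 genes), beside 5.23% of all genes that fell, 4.39% that rose and 9.62% in either direction. An unadjusted p under 0.05 with a lower level was reached by 6 of the 8 members and 15.3% of all genes. The median change of the members was -0.40, against 0.00273 over all genes, and 8 of 8 had a negative sign, against 49.6% of all genes.

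Dusp2, a nuclear phosphatase of ERK and p38 known from activated blood cells, lies on chromosome 2 (chr2:127336159-127338376, plus strand, mm10). In the liver it measured 0.295, 0.301 and 0.447 FPKM in H2 libraries and 1.96, 0.594 and 2.94 FPKM in control libraries. The 3 H2 livers were alike and below every control liver, and the lowest control value was that of control liver 2. Intestinal Dusp2 measured 0.971, 0.869 and 1.58 FPKM in H2 libraries and 5.34, 3.82 and 5.40 FPKM in control libraries. The H2 intestines again all lay below the controls, with a wide gap between the groups. In the lung it measured 5.95, 3.27 and 2.37 FPKM in H2 libraries and 32.5, 13.3 and 4.26 FPKM in control libraries. Here the groups overlapped, because control lung 3 lay within the H2 range while the other control lungs were far above it.

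The mean Dusp2 level was 5.26-fold lower in H2 liver, 4.26-fold lower in H2 intestine and 4.31-fold lower in H2 lung than in the control group of the same organ. Over the organs Dusp2 fell by 1.33 on the log2 scale (-1.33 ± 0.28, limma adjusted p = 0.0164). Within an organ no member passed. The Dusp2 change was -1.45 ± 0.20 in the intestine (limma adjusted p = 0.133, the 10th smallest p of 11910 genes), -0.98 ± 0.31 in the liver (0.177) and -1.55 ± 0.64 in the lung (0.214). In the liver the H2 values rest on few reads, an implied 6.01, 5.10 and 6.90 fragments, against 36.3, 11.03 and 49.7 in control livers. In bulk tissue, fewer cells that express a gene and less RNA per cell cannot be told apart.

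The Dusp2 result kept its sign and its call when any of the 18 libraries was left out, with an adjusted p between 0.000509 and 0.0418 and a log2 change between -1.56 and -1.11 (limma). Without control liver 2 it passed within the liver (-1.34 ± 0.16, adjusted p = 0.00283), and without control lung 3 within the lung (-2.24 ± 0.43, adjusted p = 0.0193). These 2 controls lay among the H2 libraries on the axis above, so leaving them out widens the difference of many genes. In these fits 2834 of 10057 liver genes and 3295 of 13424 lung genes passed, against 2 and 1 with every library. Dusp2 missed the threshold over the organs when the replicate 1 libraries of all groups were left out (limma adjusted p = 0.199). It also missed it when the 3 organs with the same treatment and number were averaged to 1 value (limma adjusted p = 0.0589).

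Dusp5, a nuclear phosphatase that acts on ERK alone, lies on chromosome 19 (chr19:53529109-53542431, plus strand). It measured 3.35, 2.16 and 2.72 FPKM in H2 intestines and 8.21, 3.67 and 5.76 FPKM in control intestines. No H2 intestine reached the lowest control intestine. In the lung it measured 6.85, 4.11 and 3.78 FPKM in H2 libraries and 9.12, 7.35 and 5.10 FPKM in control libraries, and in the liver 0.146, 0.449 and 0.190 FPKM in H2 libraries and 1.18, 0.322 and 0.773 FPKM in control libraries. In both organs the highest H2 library lay above the lowest control library. Over the organs Dusp5 fell by 0.59 on the log2 scale (-0.59 ± 0.15, limma adjusted p = 0.0320). This call was lost in 11 of the 18 fits that left out 1 library (adjusted p from 0.00968 to 0.0694), without the replicate 1 libraries (0.226) and with 1 mean over the organs (0.115). Within organs the change was -0.84 ± 0.26 in the intestine (limma adjusted p = 0.353) and -0.47 ± 0.25 in the lung (0.286). The liver mean of Dusp5 lay below the filter of 1 FPKM, and without the filter the change there was -0.46 ± 0.19 (adjusted p = 0.303).

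**Figure D2:**
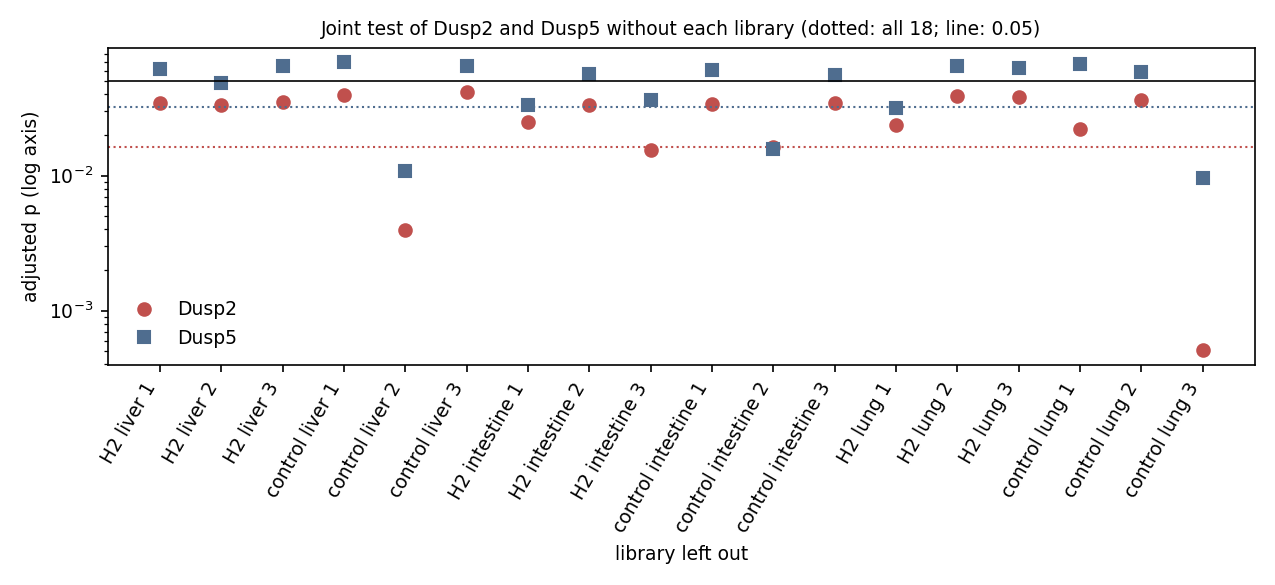
Adjusted p (log axis) of the mean H2 change over the organs for Dusp2 (red circles) and Dusp5 (blue squares) when the library named below is left out; dotted lines mark the values with all 18 libraries and the solid line marks 0.05. All Dusp2 points lie below the line, between 0.000509 and 0.0418, and 11 of the 18 Dusp5 points lie above it.

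Dusp1, the inducible nuclear phosphatase of p38 and JNK, lies on chromosome 17 (chr17:26505590-26562128, minus strand). In the intestine it measured 10.6, 9.18 and 7.87 FPKM in H2 libraries and 45.4, 13.3 and 26.2 FPKM in control libraries. The H2 intestines formed a narrow range below all controls, which varied widely among themselves. In the liver it measured 11.3, 10.03 and 7.57 FPKM in H2 libraries and 21.5, 11.1 and 10.7 FPKM in control libraries, and control liver 1 lay far above the other 5, which overlapped. In the lung, where Dusp1 was the most abundant member, it measured 343, 209 and 123 FPKM in H2 libraries and 307, 179 and 214 FPKM in control libraries. The control lungs lay inside the H2 range. The Dusp1 change was -1.37 ± 0.39 in the intestine (limma adjusted p = 0.353), -0.49 ± 0.28 in the liver (0.335) and -0.14 ± 0.38 in the lung (0.836). The lung value turned positive under quantile normalization, under array weights and after scaling each library to the same sum. Over the organs the change was -0.67 ± 0.23 (adjusted p = 0.0751). The annotated span of Dusp1 overlaps Ergic1 on the opposite strand. The library kit keeps the strand, but whether strand was used in counting is not given in the sources used here.

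Dusp4, the other nuclear member, lies on chromosome 8 (chr8:34807297-34819894, plus strand) and was among the lowest in each organ. It measured 1.20, 1.24 and 2.51 FPKM in H2 intestines and 2.90, 1.998 and 2.77 FPKM in control intestines. Of these H2 libraries 2 were below every control and the H2 intestine 3 value lay among the controls. The change was -0.45 ± 0.23 in the intestine (limma adjusted p = 0.450) and -0.11 ± 0.13 in the lung (0.615), where the H2 libraries held 3.42 to 4.56 and the control libraries 4.25 to 4.89 FPKM. In the liver it measured 0.156 to 0.459 FPKM in H2 libraries and 0.411 to 0.773 FPKM in control libraries, below the filter, and without the filter the change was -0.27 ± 0.12 (adjusted p = 0.322). Over the organs the change was -0.28 ± 0.10 (adjusted p = 0.0908).

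Dusp6, the cytoplasmic phosphatase of ERK, lies on chromosome 10 (chr10:99263231-99267489, plus strand) and was the member with the smallest mean log2 change over the organs. It measured 7.41, 5.598 and 3.68 FPKM in H2 livers and 7.66, 11.1 and 5.73 FPKM in control livers, with overlapping ranges. Intestinal values were 29.5 to 42.0 FPKM in H2 libraries, inside the control range of 22.8 to 52.9 FPKM. Lung values were 33.6 to 65.8 FPKM in H2 libraries and 27.2 to 52.1 FPKM in control libraries. The change was -0.48 ± 0.28 in the liver (limma adjusted p = 0.346), -0.14 ± 0.32 in the intestine (0.863), 0.20 ± 0.32 in the lung (0.699) and -0.14 ± 0.20 over the organs (0.671). The sign in intestine and lung depended on single libraries.

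Among the phosphatases of the stress-activated kinases, Dusp16 lies on chromosome 6 (chr6:134715468-134792625, minus strand). It measured 8.39, 9.59 and 9.77 FPKM in H2 livers and 15.7, 12.98 and 20.8 FPKM in control livers. The H2 livers lay close together and below all 3 controls. In the lung it measured 19.1, 25.0 and 28.6 FPKM in H2 libraries and 53.7, 39.8 and 19.6 FPKM in control libraries. As for Dusp2, control lung 3 lay within the H2 range and the other control lungs above it. Intestinal values were 5.58 to 6.63 FPKM in H2 libraries and 4.82 to 9.49 FPKM in control libraries, which overlapped. The liver change was -0.75 ± 0.18 (limma adjusted p = 0.167). It was -0.23 ± 0.23 in the intestine (0.671), -0.52 ± 0.35 in the lung (0.382) and -0.50 ± 0.17 over the organs (0.0696). Without control liver 2 Dusp16 passed in the liver (-0.90 ± 0.15, adjusted p = 0.00737), and without control lung 3 in the lung (-0.92 ± 0.20, adjusted p = 0.0265). In the same fits 2834 of 10057 liver genes and 3295 of 13424 lung genes passed. With both of these controls left out, 3 members passed over the organs, Dusp2 (-1.68), Dusp5 (-0.72) and Dusp16 (-0.68). In that fit 3888 of 13339 genes passed in all. Without control intestine 2 alone, 5 members passed over the organs, Dusp2 (-1.37), Dusp5 (-0.67), Dusp1 (-0.81 ± 0.21, limma adjusted p = 0.0261), Dusp10 (-0.42 ± 0.10, 0.0204) and Dusp16 (-0.58 ± 0.16, 0.0354), while 1726 of 13379 genes passed in all.

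Dusp8, which acts on JNK and p38, lies on chromosome 7 (chr7:142079490-142095843, minus strand). In the liver it measured 0.616, 0.532 and 1.03 FPKM in H2 libraries and 1.25, 1.22 and 1.14 FPKM in control libraries. In the intestine it measured 1.88, 1.33 and 1.32 FPKM in H2 libraries and 3.08, 2.28 and 3.17 FPKM in control libraries. Both organs had every H2 library below every control library. In the lung it measured 7.62, 5.54 and 10.9 FPKM in H2 libraries and 5.90, 5.33 and 4.88 FPKM in control libraries. There the order was the other way round for 2 of the 3 H2 libraries, and H2 lung 2 lay among the controls. The change was -0.62 ± 0.18 in the intestine (limma adjusted p = 0.353) and 0.46 ± 0.22 in the lung (0.249), and without the filter -0.36 ± 0.12 in the liver (0.258). Over the organs, where these signs oppose each other, it was -0.17 ± 0.11 (0.289).

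Dusp10, the third phosphatase of JNK and p38, lies on chromosome 1 (chr1:184013302-184075636, plus strand) and overlaps 1700056E22Rik on the opposite strand. It measured 1.33, 1.32 and 1.15 FPKM in H2 livers and 2.29, 1.37 and 1.75 FPKM in control livers. These groups did not overlap, by the small margin between H2 liver 1 and control liver 2. In the intestine it measured 1.82 to 2.85 FPKM in H2 libraries, against 5.38, 1.96 and 5.11 FPKM in control libraries, of which control intestine 2 lay among the H2 values. Lung values were 1.69 to 2.62 FPKM in H2 libraries and 1.94 to 2.93 FPKM in control libraries. The liver change was -0.29 ± 0.15 (limma adjusted p = 0.292). It was -0.57 ± 0.31 in the intestine (0.465), -0.04 ± 0.18 in the lung (0.904) and -0.30 ± 0.14 over the organs (0.159).

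Counted by organ, every H2 library lay below every control library for 4 of 8 members in the liver (Dusp2, Dusp8, Dusp10 and Dusp16, of which Dusp8 was below the filter), beside 13.1% of all tested genes there. In the intestine it was 4 of 8 (Dusp1, Dusp2, Dusp5 and Dusp8), beside 8.75% of all genes, and in the lung 0 of 8, beside 15.9% of all genes. No member had every H2 library above every control library, which 12.2%, 10.6% and 14.1% of all genes had in liver, intestine and lung. By the limma test 0 of 5 members tested passed for the liver, 0 of 8 for the intestine and 0 of 8 for the lung, where 0.0199%, 0.0084% and 0.00745% of all genes passed. An unadjusted p under 0.05 with a lower level was reached by 2 members in the liver (Dusp2 and Dusp16, 10.2% of all genes), by 4 in the intestine (Dusp1, Dusp2, Dusp5 and Dusp8, 5.96% of all genes) and by 1 in the lung (Dusp2, 12.5% of all genes). The members tested had a median change of -0.49 in the liver (all genes -0.02), of -0.59 in the intestine (0.02) and of -0.12 in the lung (-0.00358). An exact permutation test of 3 against 3 libraries cannot give a p below 0.1, so single genes were tested by limma only.

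**Figure D3:**
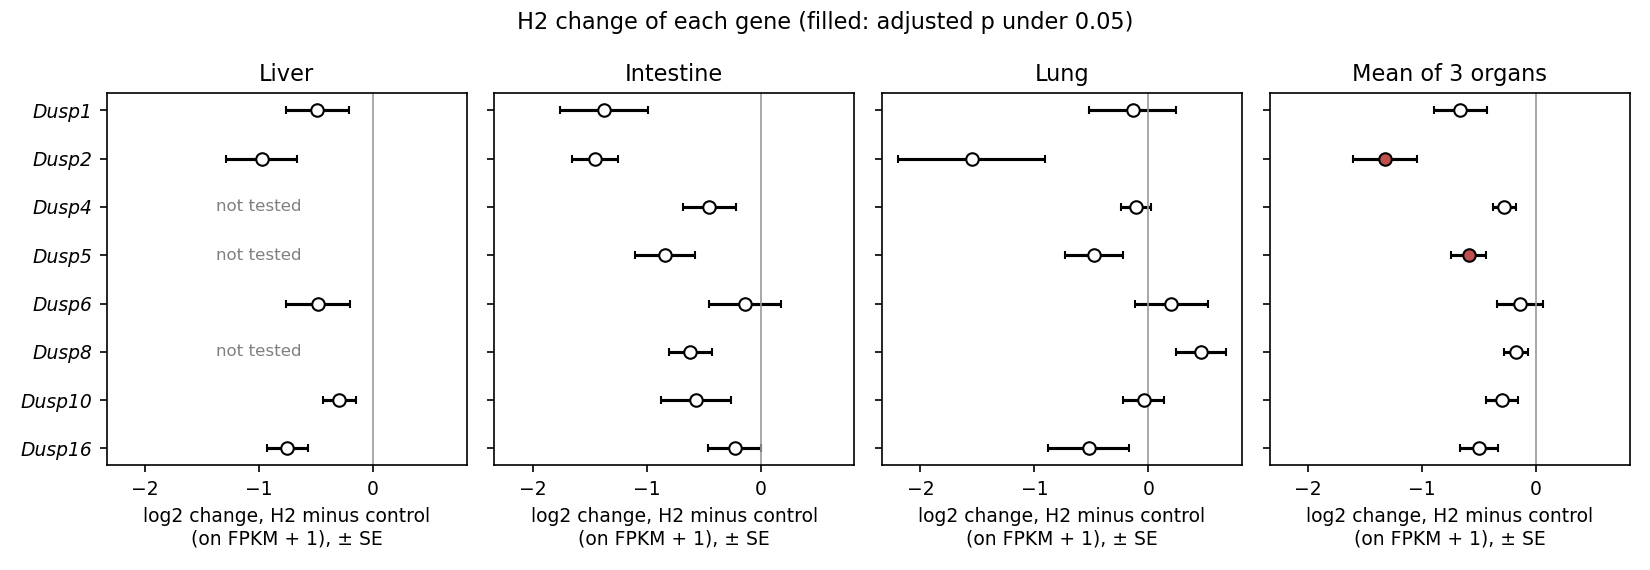
Change of each phosphatase gene as H2 minus control on log2(FPKM + 1), with bars of ± SE, in liver, intestine, lung and as the mean of the 3 organs; filled points have an adjusted p under 0.05 and genes below the filter are given as not tested. Dusp2 is the leftmost point in each panel, and only Dusp2 and Dusp5 in the last panel are filled.

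Whether the H2 change differed between organs was tested in the fit of all 18 libraries. No member passed for liver minus intestine, liver minus lung or intestine minus lung, where 0.217%, 0.239% and 1.24% of all genes did (limma, adjusted p under 0.05). At an unadjusted p under 0.05 there were 0, 1 and 2 members, beside 15.5%, 12.3% and 19.7% of all genes. Dusp8 came nearest, with an H2 change lower by 1.08 ± 0.26 in intestine than in lung (difference -1.08, adjusted p = 0.0564) and a difference of -0.82 ± 0.26 between liver and lung (adjusted p = 0.198). Leaving out 1 library brought the first of these to an adjusted p between 0.0393 and 0.138, under 0.05 in 5 of 18 fits. The Dusp1 difference between intestine and lung was -1.23 ± 0.57 (adjusted p = 0.242).

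Across the 18 libraries, after the mean of each organ was taken off the log2 values, the members did not all vary together. The highest Pearson correlations were 0.86 between Dusp1 and Dusp5, 0.85 between Dusp2 and Dusp5, 0.76 between Dusp2 and Dusp16 and 0.75 between Dusp1 and Dusp10. Dusp6 correlated little with Dusp2 (-0.07) and Dusp5 (0.15). The genes most like Dusp2 among 12180 were Zfand5, a zinc finger gene (r = 0.95), Sele, the endothelial adhesion molecule E-selectin (0.95), and Ptpn1, a tyrosine phosphatase (0.94). Sele averaged 0.197 ± 0.0275 FPKM in H2 and 1.18 ± 0.860 in control liver, 0.295 ± 0.0753 in H2 and 1.56 ± 0.906 in control intestine, and 0.826 ± 0.334 in H2 and 6.87 ± 5.03 in control lung. Those most like Dusp5 were the chemokine gene Cxcl2 (0.94), the stress gene Ppp1r15a (0.92) and the salt-inducible kinase gene Sik1 (0.92). The libraries share treatment, depth and mRNA preparation, so these values describe likeness only.

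The kinases that these phosphatases act on, and the enzymes above them, were counted over the organs in the same way, beside the 9.62% of all genes that passed. Of 13 tested MAP kinases 0 passed (2 lower and 0 higher at an unadjusted p under 0.05), with Mapk7 at -0.30 ± 0.10 (limma adjusted p = 0.0635) and Mapk6 at -0.66 ± 0.23 (0.0750). Of 7 MAP2 kinases 0 fell and 1 rose, Map2k6, an activator of p38, at 0.35 ± 0.07 (limma adjusted p = 0.0129). Its mean was 0.987 ± 0.183 FPKM in H2 and 0.298 ± 0.0625 in control lung, and 3.03 ± 0.2995 in H2 and 2.38 ± 0.131 in control intestine. Of 17 MAP3 kinases 2 fell and 0 rose. Map3k8, the kinase that links toll-like receptors to ERK, changed by -0.80 ± 0.15 (limma adjusted p = 0.0116), with 1.78 ± 0.270 FPKM in H2 and 3.45 ± 1.34 in control liver, 1.45 ± 0.262 in H2 and 3.99 ± 0.869 in control intestine, and 12.9 ± 0.309 in H2 and 23.7 ± 9.22 in control lung. Map3k14, a kinase of the non-canonical NF-kappa B pathway, changed by -0.43 ± 0.09 (adjusted p = 0.0164). Of 9 kinases activated by MAP kinases 2 fell and 0 rose, Mapkapk2, the main p38 effector (-0.49 ± 0.11, adjusted p = 0.0228), and Rps6ka3, an ERK effector (-0.38 ± 0.10, adjusted p = 0.0307).

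Other feedback inhibitors of the ERK pathway included 3 that fell and 0 that rose of 7 tested. Spred1 changed by -0.50 ± 0.09 (limma adjusted p = 0.0103), Spry4 by -0.98 ± 0.22 (0.0198) and Spred2 by -0.39 ± 0.11 (0.0454). Spry4 averaged 0.663 ± 0.264 FPKM in H2 and 1.70 ± 0.460 in control liver, 0.839 ± 0.432 in H2 and 2.14 ± 0.944 in control intestine, and 8.60 ± 3.37 in H2 and 27.9 ± 14.9 in control lung. Of 11 tested genes in a list of ERK targets, which also holds the transcription factor genes Elk1 and Elk3, 4 fell and 0 rose. Those that fell were Ier3 (-1.71 ± 0.32, limma adjusted p = 0.0116), Myc (-0.95 ± 0.23, 0.0274), Ier2 (-0.65 ± 0.17, 0.0304) and Egr1 (-1.33 ± 0.40, 0.0484). Of 10 transcription factor genes downstream of JNK and p38, 0 fell and 1 rose, Creb1 at 0.33 ± 0.09 (adjusted p = 0.0367), while Junb was at -0.57 ± 0.19 (0.0676) and Jun at -0.38 ± 0.15 (0.105). Of 12 cytokine and inflammatory genes whose mRNA depends on p38, 8 fell and 0 rose, with Il10 at -1.43 ± 0.25 and Ccl4 at -2.18 ± 0.45. Of 6 genes for proteins that bind AU-rich elements 2 fell, Hnrnpd (-0.56 ± 0.14, adjusted p = 0.0275) and Zfp36l1 (-0.48 ± 0.13, adjusted p = 0.0406), and 0 rose. The medians of these lists were -0.30 for ERK feedback, -0.36 for ERK targets, -0.24 for JNK and p38 factors, -1.67 for cytokines and -0.26 for AU-rich binding, against -0.40 for the 8 phosphatases and 0.00273 over all genes.

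**Figure D4:**
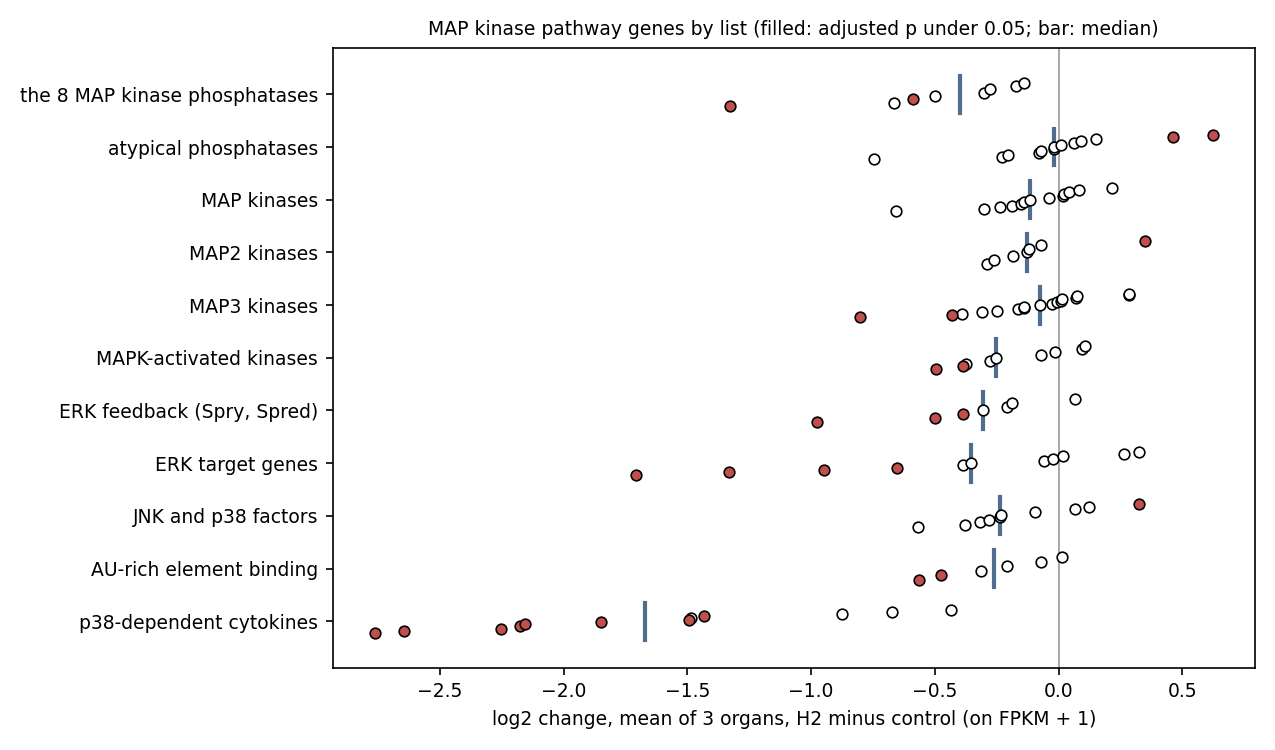
Mean H2 change over the 3 organs, as H2 minus control on log2(FPKM + 1), for every tested gene of the phosphatase family and of 10 MAP kinase pathway lists, with a bar at the median of each list; filled points have an adjusted p under 0.05. The medians run from -1.67 for the p38-dependent cytokines to -0.02 for the atypical phosphatases, with the 8 phosphatases at -0.40. The list of atypical phosphatases also holds the slingshot genes Ssh1, Ssh2 and Ssh3, and the list of ERK target genes also holds Elk1 and Elk3.

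Markers of immune, endothelial and fat cells were read beside these results, and their part in them was not tested. Summed neutrophil markers (9 of 10 found) overlapped between the groups in each organ. They held 101 to 202 FPKM in H2 and 126 to 348 in control liver. In the intestine they held 250 to 445 in H2 and 129 to 1129 in control libraries. Lung sums were 19574 to 32761 in H2 and 19525 to 29759 in control libraries. Single neutrophil markers in the lung went both ways, 2 lower and 3 higher at an unadjusted p under 0.05 (limma), and 0 passed. The sums of 12 monocyte and macrophage markers also overlapped, with 195 to 254 in H2 and 178 to 233 in control liver, 143 to 176 in H2 and 113 to 177 in control intestine, and 5549 to 6023 in H2 and 4263 to 6304 in control lung, while the Kupffer cell genes Clec4f and Vsig4 were at 0 in the intestine. Of these 12 markers, 2 rose and 1 fell over the organs by limma. Clec4f changed by 0.52 ± 0.09 (adjusted p = 0.00997), with 17.1 ± 3.15 FPKM in H2 and 5.44 ± 1.43 in control liver, and Vsig4 by 0.76 ± 0.14 (adjusted p = 0.0116), with 19.9 ± 4.59 FPKM in H2 and 3.97 ± 2.58 in control liver (SD, n = 3 each), and neither overlapped between the groups there. Ly6c2, a gene of inflammatory monocytes, changed by -0.71 ± 0.13 over the organs (limma adjusted p = 0.0116). It held 2.41 to 3.04 FPKM in H2 and 5.06 to 5.78 in control intestine. In the lung it held 61.4 to 82.3 in H2 and 94.0 to 153.6 in control libraries, with no overlap in either organ. T cell markers, of interest because Dusp2 is known from activated lymphocytes, summed to 0.431 to 0.811 FPKM in H2 and 0.405 to 0.912 in control liver, 9.87 to 16.7 in H2 and 7.66 to 21.4 in control intestine, and 20.2 to 25.1 in H2 and 23.3 to 36.8 in control lung. Enterocyte markers overlapped in the intestine, with 5057 to 11810 FPKM in H2 and 2559 to 6061 in control libraries. Of 10 endothelial markers 4 rose and 0 fell over the organs, and their sums overlapped in every organ. Over the organs 1 of 9 tested fat cell markers passed, Fabp4 (-1.26 ± 0.34, limma adjusted p = 0.0352). Lipe was the only one with a positive sign over the organs, and had it in each organ. The 10 listed fat cell markers had lower sums in the H2 intestine and liver, and overlapping sums in the lung. They summed to 96.4 to 272 FPKM in H2 and 341 to 494 in control intestine, and to 49.1 to 63.5 in H2 and 79.7 to 180 in control liver, with no overlap in either organ, and to 196 to 344 in H2 and 229 to 1063 in control lung. In the liver Adipoq, Plin1, Lep and Retn were at 0 in all H2 libraries and Plin1 also in all control libraries. Adipoq did not exceed 0.073 FPKM in the control liver either. The 5 fat cell markers that reached the filter of 1 FPKM in the liver were Fabp4, Pparg, Cidec, Lipe and Plin4.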

How the data were processed

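Poly(A) RNA of 18 tissue samples was sequenced from stranded libraries, per the labels' protocols. The submitters' processing notes name build mm10 and Cufflinks 2.2.1, with TopHat2 2.0.13, SAMtools 0.1.19 and Bowtie2 2.2.3. Annotation and strand setting are not given in the sources used here. FPKM are what the authors deposited, with no read counts, so the depth was only implied, from the FPKM of 1 fragment in genes with a single transcript. Groups follow the sample titles, which call every treated sample H2. The descriptions of treated replicates 2 and 3 write H3 and H4 instead, a conflict that the labels do not resolve and that was read as a numbering slip. In the file of control lung 2, 1 further column, equal to control lung 3, was not used.

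Log2(FPKM + 1) was tested with limma 3.58.1 in R 4.3.3 (empirical Bayes with trend, two-sided) over genes whose mean FPKM reached 1, with Benjamini-Hochberg adjustment over all tested genes and a threshold of 0.05. Each organ was fitted alone. The mean over the organs, differences between organs and organ levels used 1 fit of all 18 libraries. The fits were tested on simulated data.

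The 8 members and all lists were chosen with earlier results of these data known. From each pathway list, up to 4 genes with the smallest p are named, and for likeness the 3 genes with the highest correlation, predicted and small RNA genes left out. Gene positions are from GENCODE vM21, promoters from RefSeq.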

Additional observations from a re-analysis of the deposited data

How the results depend on the processing

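Calls of the 8 phosphatases were counted under each alternative, among them 3 chosen after seeing the data (replicate 1 libraries left out, each library scaled to an equal sum, and control liver 2 and control lung 3 both left out). In the liver 0 members were called, 2 with array weights and 2 with both controls left out. Of all liver genes these 2 settings called 2520 of 10041 and 2834 of 10057. In the intestine 0 were called and 1 with array weights, which called 11 of 11910 genes there. In the lung 0 were called, 4 with array weights and 2 with both controls left out. Of all lung genes these settings called 7137 of 13424 and 3295 of 13424, so these member counts have to be read beside large shares of all genes. Over the organs 2 were called, 6 with array weights, 0 with a mean FPKM of at least 5, which Dusp2 and Dusp5 do not reach, 0 with a replicate block over organs (1 mean per treatment and number), and 0 with replicate 1 libraries left out. Array weights called 5655 of all 13362 genes over the organs. For differences between organs 0 were called, 3 with array weights, 1 with both controls left out and 1 after scaling to an equal sum. Of all genes, array weights called 3220 of 13362 between liver and lung and 2727 of 13362 between intestine and lung. Between intestine and lung, 1229 of 13339 were called with both controls left out and 618 of 13769 after scaling to an equal sum. Of the members 8 differed between control organs, 3 with a mean FPKM of at least 5 and 5 after quantile normalization. Without 1 library the counts ran from 0 to 2 in the liver, 0 to 0 in the intestine, 0 to 2 in the lung, 1 to 5 over the organs, 0 to 1 for differences and 8 to 8 for organ levels, and the calls of all genes over the organs from 312 to 2814, against 1285 with every library. The weights of the array weights fits did not reach their convergence tolerance. Beyond these constructions the cause was not tested.

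Of 1488 values of single members under an alternative, 1347 kept their direction and side of the threshold, 57 lost a call, 52 gained one and 32 changed sign. Dusp6, intestine, was 0.49 with array weights. Dusp1, lung, was 0.065 after quantile normalization, 0.18 with array weights and 0.027 after scaling to an equal sum. Dusp4, lung, was 0.028 after that scaling. Dusp6, lung, was -0.11 with replicate 1 libraries left out. Dusp10, lung, was 0.076 with array weights, 0.078 with both controls left out and 0.083 after scaling to an equal sum. Dusp6, joint, was 0.23 with array weights and 0.014 with both controls left out. Among organ levels in control libraries, quantile normalization gave 0.043 for Dusp8 and 0.036 for Dusp10 (liver minus intestine), 1.22 for Dusp10 and 0.027 for Dusp16 (liver minus lung), and 0.042 for Dusp4 and 0.31 for Dusp5 (intestine minus lung). Median-of-ratios scaling gave 0.69 for Dusp10 and 0.30 for Dusp16 (liver minus lung) and 0.20 for Dusp5 (intestine minus lung). Dusp6 (intestine minus lung) was -0.15 with array weights and -0.21 with replicate 1 libraries left out. Without 1 library the changes ran from -0.50 to 0.23 for Dusp1 in the lung, -0.50 to 0.092 for Dusp6 in the intestine, -0.10 to 0.44 for Dusp6 in the lung, -0.13 to 0.10 for Dusp10 in the lung, and -0.20 to 0.39 for Dusp6 between control intestine and lung. Scaling to an equal sum moved the median change of all genes to -0.25 in the intestine and 0.15 in the lung.

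Replicate numbers were not taken as pairs, since the labels give no such meaning and not every pair deviated together. Deviations of H2 and control libraries with the same number correlated at -0.11 to 0.33, over 0.1 in 3 of 9 pairs. Between organs of the same treatment they correlated at -0.18 to 0.21, over 0.1 in 4 of 18 pairs. Replicate 1 libraries did deviate together in part, at 0.33 between H2 and control liver, 0.16 between H2 and control intestine, and 0.18, 0.14 and 0.19 among the control organs. With the replicate number as a replicate block, 3 members were called over the organs, Dusp2 (adjusted p = 0.0149), Dusp5 (0.0162) and Dusp1 (0.0245) by limma. Of all 13362 genes, 1337 were called with this block, 744 of them lower. FPKM files give no counts, so no counting interval was made. Members near or below 1 FPKM rest on few fragments, and a change too small for this depth was not detectable.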

Other observations

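The atypical dual-specificity phosphatases, relatives that lack the MAP kinase docking domain, were counted over the organs in the same way. Their list also holds the slingshot phosphatase genes Ssh1, Ssh2 and Ssh3, which are included in the count and median below. Of 13 tested genes of this list, 0 fell and 2 rose (limma, adjusted over all tested genes), and their median change was -0.02. Dusp19 changed by 0.62 ± 0.15 (limma adjusted p = 0.0284). Its mean was 3.74 ± 0.576 FPKM in H2 and 2.41 ± 0.875 in control liver, 7.93 ± 2.499 in H2 and 4.77 ± 1.61 in control intestine, and 4.98 ± 0.360 in H2 and 2.72 ± 1.22 in control lung, with no overlap in the lung alone. Dusp12 changed by 0.46 ± 0.12 (limma adjusted p = 0.0334), with 9.69 ± 1.12 FPKM in H2 and 5.73 ± 2.01 in control liver, 10.97 ± 3.70 in H2 and 6.27 ± 1.01 in control intestine, and 8.70 ± 0.783 in H2 and 8.73 ± 1.14 in control lung. Dusp14 was at -0.75 ± 0.32 (adjusted p = 0.132), with 5.06 ± 2.83 FPKM in H2 and 29.0 ± 25.7 in control intestine. Dusp7, a further phosphatase of ERK, was at -0.05 ± 0.10 (adjusted p = 0.741), and Dusp9 lay below the filter.

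Genes that glucocorticoids induce, listed together with the receptor gene Nr3c1, were read because Dusp1 is known to respond to glucocorticoids. The genes of this list did not move one way. Of 10 tested 1 fell and 0 rose over the organs (limma), and the median change was -0.21. The metallothionein gene Mt2 changed by -1.52 ± 0.26 (adjusted p = 0.00893). Tsc22d3, which encodes the glucocorticoid-induced leucine zipper, was at 0.62 ± 0.22 (adjusted p = 0.0741), Fkbp5, a chaperone of the glucocorticoid receptor, at -0.36 ± 0.13 (0.0862), and the receptor gene Nr3c1 at 0.19 ± 0.07 (0.0945).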
